A study of Homo sapiens with 6 samples.

Results

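Tetraspanins are small membrane proteins that gather with integrins, proteases and each other into patches of the cell surface and of endosomes. *CD63*, *CD9* and *CD81* encode the tetraspanins most used as marker proteins of exosomes, which are vesicles that form inside late endosomes and are released when these fuse with the plasma membrane. The 10 genes described here are *CD63*, *CD9*, *CD81*, *CD82*, *TSPAN1*, *TSPAN3*, *TSPAN4*, *TSPAN6*, *TSPAN14* and *TSPAN15*. They were chosen by symbol, and all 10 were found among the 12499 genes of the deposited table and passed the filter on low counts. Their products are members of the tetraspanin family, and mRNA rather than protein or vesicles was measured.

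RNA was sequenced from HaCaT cells, an immortalized line of human keratinocytes. The cells were infected for 48 h with lentivirus for *ATF7* (LV-*ATF7*) or negative control lentivirus (LV-NC), and both groups were then kept in high glucose for 24 h. Each group had 3 libraries, and neither the labels nor the methods say whether these came from separate cultures, so p-values measure the spread between these libraries only. No promoter is given for the transgene, no uninfected or normal-glucose cells are among the 6 libraries, and single-cell clones are not mentioned.

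Total counts ranged from 16686472 to 20562768 per library. *ATF7* itself went against the labels, at 46.4 to 52.2 CPM (reads on the gene relative to all reads counted, scaled by the TMM method) in the libraries labeled LV-NC and 21.9 to 28.0 CPM in those labeled LV-*ATF7* (log2 fold change -0.98, adjusted p = 1.89e-04, edgeR), so every direction given here rests on the labels. Of its exon bases, 18.2% also lie in another gene on the same strand and 27.1% in genes on the opposite strand. LV-NC replicate 1 stood apart from LV-NC replicates 2 and 3 on the second principal component (45.8 against -21.2 and -19.5). Keratinocyte markers were all in the table, and 12 of 15 passed the test, 10 higher and 2 lower in the libraries labeled LV-*ATF7*. This is 80.0%, beside 67.6% of all genes tested (34.7% higher, 32.9% lower). *KRT5* ranged from 99.96 to 355.5 CPM in LV-NC and from 3215 to 3622 CPM in LV-*ATF7*, and *KRT14* was at or under 12.53 CPM in every library. Of the markers of other cells, 2 of 9 fibroblast, 3 of 8 monocyte and macrophage, 2 of 5 endothelial and 2 of 6 melanocyte genes could be tested. Their summed levels in LV-NC and LV-*ATF7* were 33.13 to 42.73 and 17.3 to 21.73 CPM for fibroblasts, and 5.568 to 8.125 and 9.378 to 12.72 CPM for monocytes. They were 1.124 to 5.499 and 84.62 to 89.86 CPM for endothelium, where *CDH5* alone had 0.6425 to 4.862 and 81.05 to 86.2 CPM and *VWF* the rest, and 17.54 to 24.79 and 12.18 to 13 CPM for melanocytes. *PTPRC*, *CD68*, *PECAM1*, *COL3A1*, *MLANA* and *SOX10* had no row in this table, in which every gene has at least 51 counts over the 6 libraries. The part of these marker differences in the tetraspanin results was not tested.

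ATF7 is a transcription factor of the CREB/ATF family, which binds the cAMP response element (CRE), so the start regions of the genes are shown first. RefSeq (GRCh38.p14) gave a region of 250 bases before to 50 after the start for 8 of the 10 genes, and *CD81* and *TSPAN3* had no entry. Where a gene had several starts, the one nearest to the start of its GENCODE principal transcript was taken. The regions of the 3 largest rises and of a gene that fell are printed 5′ to 3′, with matches to the motifs searched in capitals.
CD63: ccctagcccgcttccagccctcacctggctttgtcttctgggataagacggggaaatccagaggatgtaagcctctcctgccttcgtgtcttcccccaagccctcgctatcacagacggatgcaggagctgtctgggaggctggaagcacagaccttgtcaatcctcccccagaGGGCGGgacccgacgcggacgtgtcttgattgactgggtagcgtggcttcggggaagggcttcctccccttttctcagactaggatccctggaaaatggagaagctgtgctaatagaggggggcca
CD9: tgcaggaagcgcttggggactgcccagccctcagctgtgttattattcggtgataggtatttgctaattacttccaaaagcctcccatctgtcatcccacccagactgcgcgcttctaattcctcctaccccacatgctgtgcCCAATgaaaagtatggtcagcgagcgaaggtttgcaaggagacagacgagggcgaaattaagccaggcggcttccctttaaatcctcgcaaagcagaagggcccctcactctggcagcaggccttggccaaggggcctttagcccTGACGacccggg
TSPAN1: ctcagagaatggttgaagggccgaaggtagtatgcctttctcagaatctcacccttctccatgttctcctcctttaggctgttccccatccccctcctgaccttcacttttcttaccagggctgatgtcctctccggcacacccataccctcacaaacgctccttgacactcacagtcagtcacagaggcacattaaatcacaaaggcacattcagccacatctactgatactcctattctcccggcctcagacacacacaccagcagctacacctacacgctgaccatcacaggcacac
TSPAN4: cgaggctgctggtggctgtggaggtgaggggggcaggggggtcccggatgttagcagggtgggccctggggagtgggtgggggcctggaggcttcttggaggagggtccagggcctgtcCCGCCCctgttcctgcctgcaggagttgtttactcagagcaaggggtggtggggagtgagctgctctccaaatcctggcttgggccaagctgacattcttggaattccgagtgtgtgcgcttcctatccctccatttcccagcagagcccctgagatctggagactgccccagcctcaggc

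The *CD63* region is chr12:55729624-55729923 on the minus strand, and that of *CD9* is chr12:6199696-6199995 on the plus strand, 231 bases from the principal start. The *TSPAN1* region is chr1:46174837-46175136 and that of *TSPAN4* chr11:844164-844463, both on the plus strand. Both strands were searched. The full CRE, TGACGTCA, was in none of the 8 regions and in 1.85% of the 35116 RefSeq regions of the same length. The shorter TGACG, which every full CRE contains, was in *CD9* and *CD82* and in 24.6% of all regions. The AP-1 motif TGANTCA and the E-box CACGTG were in none of the 8, against 7.71% and 7.26% of all regions. The GC box GGGCGG was in *CD63*, *CD82*, *TSPAN4*, *TSPAN6*, *TSPAN14* and *TSPAN15* and in 45.0% of all regions, with 6 matches in *TSPAN14*. The CCAAT box CCAAT was in *CD9* and *TSPAN15* and in 34.6% of all regions. The *TSPAN1* region held no match to any motif searched, and its GC content was 52.0%, against 85.7% for *TSPAN14* and a median of 58.7% over all regions.

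Tetraspanin mRNA moved in both directions. By the labels, 6 of the 10 genes were higher in LV-*ATF7* (*CD63*, *CD9*, *CD82*, *TSPAN1*, *TSPAN3* and *TSPAN6*), 2 were lower (*CD81* and *TSPAN4*), and *TSPAN14* and *TSPAN15* did not pass an adjusted p of 0.05 (quasi-likelihood test of edgeR, Benjamini-Hochberg adjusted over the 12462 genes tested). Across all genes tested, 67.6% passed, with 34.7% higher and 32.9% lower, and of the 8338 genes at least as abundant as the least abundant member 69.5% passed, so 8 of 10 is near the background. When a change of 1.5-fold or more was also asked for, 5 members were higher and 2 lower, beside 28.2% and 24.6% of all genes (52.9% in all). The median log2 fold change of the members was 0.51 and that of all genes tested was 0.00. The groups did not overlap for the same 8 members, 6 above and 2 below, where 38.0% of all genes lay above and 34.7% below (72.7% in all). Without LV-NC replicate 1, 9 members passed, 7 higher and 2 lower, and so did 80.1% of all genes.

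**Figure D1:**
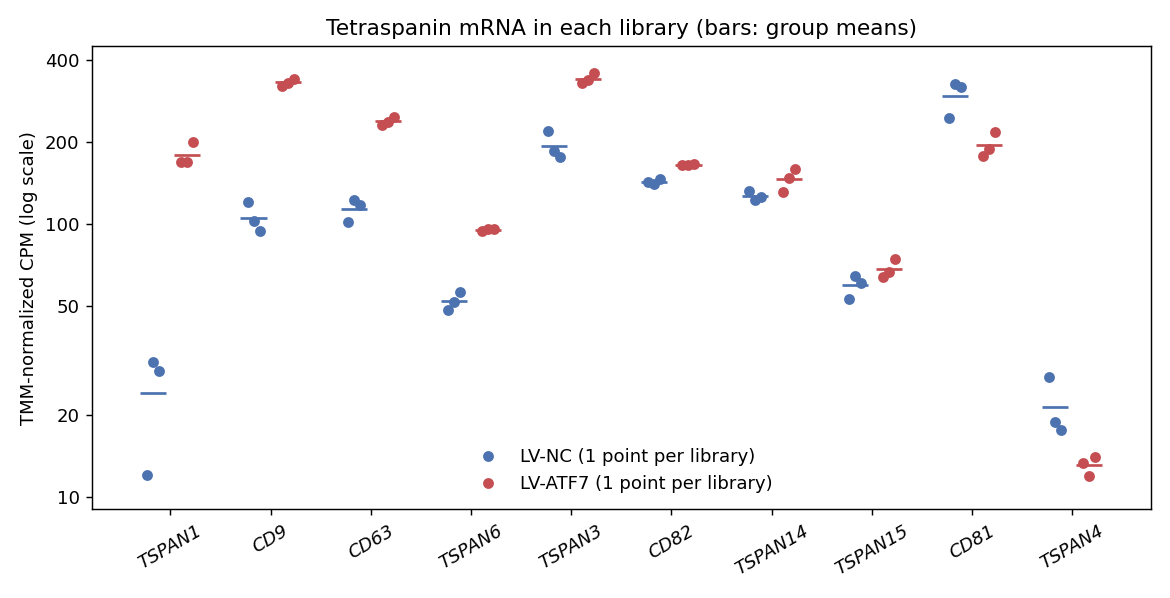
Normalized level of each tetraspanin (y axis, TMM-normalized CPM on a log scale) in each of 6 libraries, with LV-NC in blue, LV-*ATF7* in red and horizontal bars at group means of 3 libraries. The *CD81* and *TSPAN4* points of LV-*ATF7* lie below all those of LV-NC, the points of *TSPAN14* and *TSPAN15* overlap, and those of the other 6 genes lie above.

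The 3 exosome markers did not move as a set. *CD63* encodes a tetraspanin held mainly in late endosomes and lysosomes, from which it enters exosomes. It had 101.7, 122.6 and 117.5 CPM in LV-NC and 230.8, 237.6 and 248.0 CPM in LV-*ATF7*. Every library labeled LV-*ATF7* was therefore well above every LV-NC library, by 2.10-fold in the fit (log2 fold change 1.07, standard error 0.099, adjusted p = 4.48e-05). In the GRCh38 build, GENCODE release 29 places the gene (ENSG00000135404) at positions 55725323 to 55729707 of chromosome 12, minus strand. All gene positions given here come from that release. Of its exon bases, 9.0% overlap a gene on the opposite strand, and whether reads were counted by strand is not stated.

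*CD9*, at positions 6199715 to 6238271 of chromosome 12 (plus strand), encodes a cell-surface tetraspanin that associates with integrins and with the growth factor HB-EGF. It had 120.3, 102.5 and 94.01 CPM in LV-NC and 321.5, 328.8 and 341.7 CPM in LV-*ATF7*. The groups were far apart, with means of 105.6 ± 13.4 and 330.7 ± 10.2 CPM (SD, n = 3 each). The rise was 3.13-fold (log2 fold change 1.65, standard error 0.11, adjusted p = 1e-05). Of all genes tested, 84.4% had a smaller absolute change.

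*CD81*, at positions 2376177 to 2397419 of chromosome 11 (plus strand), encodes a tetraspanin best known as part of the B cell coreceptor and as an entry receptor of hepatitis C virus. It had 244.0, 325.6 and 317.7 CPM in LV-NC and 177.8, 189.1 and 218.2 CPM in LV-*ATF7*. The lowest LV-NC library, replicate 1, was still above the highest LV-*ATF7* library. *CD81* was 1.52-fold lower in LV-*ATF7* (log2 fold change -0.60, standard error 0.14, adjusted p = 0.00498). Leaving out LV-NC replicate 1 gave -0.74 (adjusted p = 1.21e-09 by the same test).

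Ratios within a library do not depend on scaling between libraries. Reads on *CD9* were 0.493, 0.315 and 0.296 times those on *CD81* in LV-NC and 1.81, 1.74 and 1.57 times in LV-*ATF7*. The read ratio of *CD63* to *CD81* went the same way, from 0.37 to 0.417 in LV-NC and from 1.14 to 1.30 in LV-*ATF7*. The ratio of *CD63* to *CD9* was 0.845 to 1.25 in LV-NC and 0.718 to 0.726 in LV-*ATF7*, with LV-NC replicate 1 closest to the latter. In bulk RNA, fewer cells that make a transcript and less of it per cell cannot be told apart.

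*CD82*, at positions 44564427 to 44620363 of chromosome 11 (plus strand), encodes a tetraspanin known as a suppressor of metastasis that binds EGFR. It was the steadiest member, at 143.1, 140.1 and 145.9 CPM in LV-NC and 165.4, 164.4 and 166.4 CPM in LV-*ATF7*. The groups did not overlap, but the rise was small, at 1.16-fold (log2 fold change 0.21, standard error 0.077, adjusted p = 0.0402). It did not pass with scaling by library size only (log2 fold change 0.05, adjusted p = 0.611), with the RLE factors (adjusted p = 0.0588), with at least 10 counts in every library (adjusted p = 0.0523) or when any library but LV-NC replicate 1 was left out (adjusted p from 0.0651 to 0.182). With library size scaling, the typical gene shifted by -0.164 (median over all genes tested, log2 scale).

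*TSPAN1*, at positions 46175073 to 46185958 of chromosome 1 (plus strand), encodes a tetraspanin of epithelia that is often raised in carcinomas. It had the largest difference of the 10 genes. Levels were 12.05, 31.35 and 28.89 CPM in LV-NC and 168.7, 168.3 and 199.6 CPM in LV-*ATF7*, from 225, 598 and 499 reads and 3023, 3301 and 3610 reads. LV-NC replicate 1 held less than the other 2 LV-NC libraries, yet every LV-NC library was far below LV-*ATF7*. The fitted rise was 7.43-fold (log2 fold change 2.89, 95% interval 2.15 to 3.63, adjusted p = 1.13e-04), and without LV-NC replicate 1 the log2 fold change was 2.55. By comparison, 94.9% of all genes tested had a smaller absolute change.

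*TSPAN3* had the highest mean read count of the 10 genes over the 6 libraries. Its LV-NC libraries had 219.4, 185.5 and 176.9 CPM and its LV-*ATF7* libraries 328.0, 337.8 and 357.2 CPM. The groups were apart, with a rise of 1.76-fold (log2 fold change 0.81, standard error 0.11, adjusted p = 2.78e-04). GENCODE places it at positions 77041404 to 77083984 of chromosome 15 (minus strand).

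*TSPAN6*, at positions 100627109 to 100639991 of chromosome X (minus strand), encodes a tetraspanin that binds syntenin-1 and has been tied to exosome release. It had 48.24, 51.95 and 56.56 CPM in LV-NC, and its LV-*ATF7* libraries were nearly equal at 94.67, 95.68 and 95.72 CPM. The rise was 1.83-fold (log2 fold change 0.87, standard error 0.094, adjusted p = 9.84e-05). *SDCBP*, which encodes syntenin-1, went the other way, from 406.8 ± 84.5 to 156.6 ± 8.35 CPM (SD, n = 3 each), a log2 difference of -1.38 with an adjusted p of 1.33e-04.

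*TSPAN4*, at positions 842808 to 867116 of chromosome 11 (plus strand), encodes a tetraspanin of migrasomes, which are vesicles left on the retraction fibers of migrating cells. It had the lowest mean read count of the 10 genes over the 6 libraries, with 27.57, 18.87 and 17.54 CPM in LV-NC and 13.29, 11.93 and 14.05 CPM in LV-*ATF7*. LV-NC replicate 1 was the highest library, and the lowest LV-NC library was above the highest of LV-*ATF7*. *TSPAN4* was 1.63-fold lower (log2 fold change -0.71, standard error 0.19, adjusted p = 0.0115). Its log2 fold change was -0.50 without LV-NC replicate 1 (adjusted p = 5.41e-04), and without LV-*ATF7* replicate 2 it was -0.64 and did not pass (adjusted p = 0.0501). The smaller p without LV-NC replicate 1 came with a smaller change and with less spread in LV-NC (18.87 and 17.54 CPM). In that fit 80.1% of all genes passed, against 67.6% with all libraries, and the cause of the smaller p was not tested.

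*TSPAN4* and *CD81*, the 2 members that fell, lie 1.51 Mb apart on chromosome 11. This was looked at after their values were seen. Of 15 genes tested between them, from 867117 to 2376176, 9 were higher and 5 lower. Of all genes tested, 34.7% were higher and 32.9% lower. The median log2 fold change of the 15 was 0.63.

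*TSPAN14* and *TSPAN15* belong to the TspanC8 tetraspanins, which carry the protease ADAM10 out of the endoplasmic reticulum and steer it toward its substrates, Notch receptors among them. *TSPAN14*, at positions 80454166 to 80533123 of chromosome 10 (plus strand), had 132.8, 123.0 and 125.4 CPM in LV-NC and 131.2, 147.0 and 159.2 CPM in LV-*ATF7*. Its groups overlapped, because LV-*ATF7* replicate 1 was below LV-NC replicate 1. The log2 fold change was 0.20 (95% interval -0.03 to 0.43, adjusted p = 0.108). It passed without LV-NC replicate 1 (log2 fold change 0.21, adjusted p = 0.0165), which left LV-NC at 123.0 and 125.4 CPM. In that fit 80.1% of all genes passed, against 67.6% with all libraries, and the cause was not tested.

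*TSPAN15*, at positions 69451473 to 69507669 of chromosome 10 (plus strand), had 53.17, 64.69 and 60.84 CPM in LV-NC and 63.97, 66.52 and 74.38 CPM in LV-*ATF7*. LV-*ATF7* replicate 1 lay below LV-NC replicate 2, so the groups overlapped here too. The log2 fold change was 0.20 (95% interval -0.06 to 0.45, adjusted p = 0.147).

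**Figure D2:**
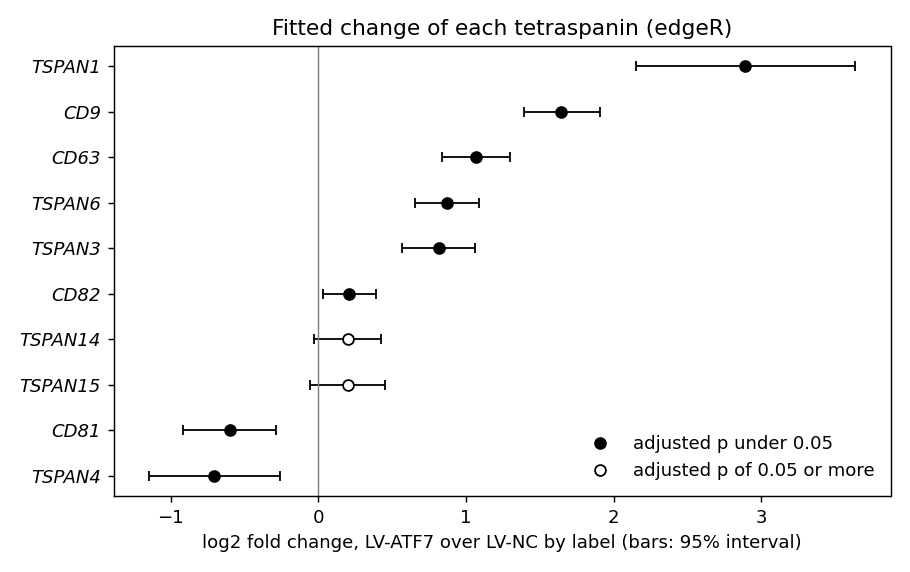
Fitted log2 fold change of each tetraspanin (x axis, LV-*ATF7* over LV-NC by label) with its 95% interval from edgeR, filled where the adjusted p was under 0.05. *TSPAN1* is farthest right at 2.89, *CD81* and *TSPAN4* lie left of 0, and the intervals of *TSPAN14* and *TSPAN15* include 0.

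LV-NC replicate 1 differed from the mean of LV-NC replicates 2 and 3 most for *TSPAN1* (-1.32 on the log2 scale), *TSPAN4* (0.60) and *CD81* (-0.40), and by 0.00 for *CD82*. Over all genes tested the median of this difference, in absolute size, was 0.31 and its 90th percentile was 0.91. The coefficient of variation in LV-NC was 43.6% for *TSPAN1* and 25.5% for *TSPAN4*, and 2.03% for *CD82*. In LV-*ATF7* it ranged from 0.607% for *CD82* to 10.7% for *CD81*.

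Levels between genes were compared as CPM per kilobase of exon, counting each exon base once. On this scale *CD63* was highest in both groups, at 43.3 ± 4.14 in LV-NC and 90.7 ± 3.29 in LV-*ATF7* (SD, n = 3 each). In LV-NC it was followed by *CD81* (40.0 ± 6.09), *CD82* (35.3 ± 0.716), *CD9* (25.4 ± 3.22), *TSPAN3* (22.8 ± 2.64) and *TSPAN15* (22.5 ± 2.22). The libraries of *CD63* and *CD81* overlapped in that order, as did those of *CD81* and *CD82* and those of *CD9*, *TSPAN3* and *TSPAN15*. In LV-*ATF7*, *CD9* (79.4 ± 2.46) and *TSPAN1* (75.6 ± 7.60) came next and overlapped each other, while *CD81* stood at 26.4 ± 2.82. *TSPAN4* was lowest in both groups, at 3.65 ± 0.933 and 2.24 ± 0.184 CPM per kilobase.

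The make-up of the tetraspanin pool was taken as each gene's share of the summed per-kilobase level of the 10 genes in a library. *TSPAN1* made up 2.43%, 5.74% and 5.43% in LV-NC and 18.1%, 17.7% and 19.5% in LV-*ATF7*. *CD9* went from 11.5 ± 2.0% to 19.4 ± 0.391% and *CD63* from 19.5 ± 0.929% to 22.1 ± 0.359% (SD, n = 3 each). *CD81* went from 18.0 ± 1.94% to 6.42 ± 0.357%. The shares of these 4 genes did not overlap between groups, nor did those of *CD82*, *TSPAN4*, *TSPAN14* and *TSPAN15*. Each of these genes gave p = 0.10 in a two-sided exact permutation test, the smallest p that 3 libraries against 3 allow. Shares in a library are parts of the same sum, so a rise in some lowers the rest. *TSPAN3* (10.3 ± 1.71% and 9.78 ± 0.0905%) and *TSPAN6* (5.20 ± 0.312% and 5.13 ± 0.233%) had overlapping shares. *CD82* and *TSPAN15* had lower shares in LV-*ATF7*, at 9.96% against 15.9% and 6.29% against 10.1%, although their CPM were not lower.

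The order of the genes depends on the length used, because *CD81* has 7394 exon bases over all transcripts and 1520 in its principal transcript. With principal transcript lengths, a choice made after seeing the data, *CD81* held 35.7 ± 3.33% of the pool in LV-NC and 14.7 ± 0.798% in LV-*ATF7* (SD, n = 3 each), and *CD9* held 12.5 ± 2.39% and 24.3 ± 0.511%. *CD81* was then the highest of the 10 in LV-NC and *CD9* in LV-*ATF7*. With the length implied by the deposited FPKM, *CD81* was again highest in LV-NC, *TSPAN1* and then *CD63* were highest in LV-*ATF7*, and *CD9* was in place 9 and place 8 of the 10. Its share was then 4.08 ± 0.727% in LV-NC and 7.70 ± 0.175% in LV-*ATF7* (SD, n = 3 each). That implied length was 36651 bases for *CD9* and 12320 for *CD63*, against 4165 and 2633 exon bases over all transcripts. It exceeds the span of the whole gene for *CD63*, and also for *TSPAN4*, at 24786 bases. Places and shares on this scale therefore do not rest on a transcript length.

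**Figure D3:**
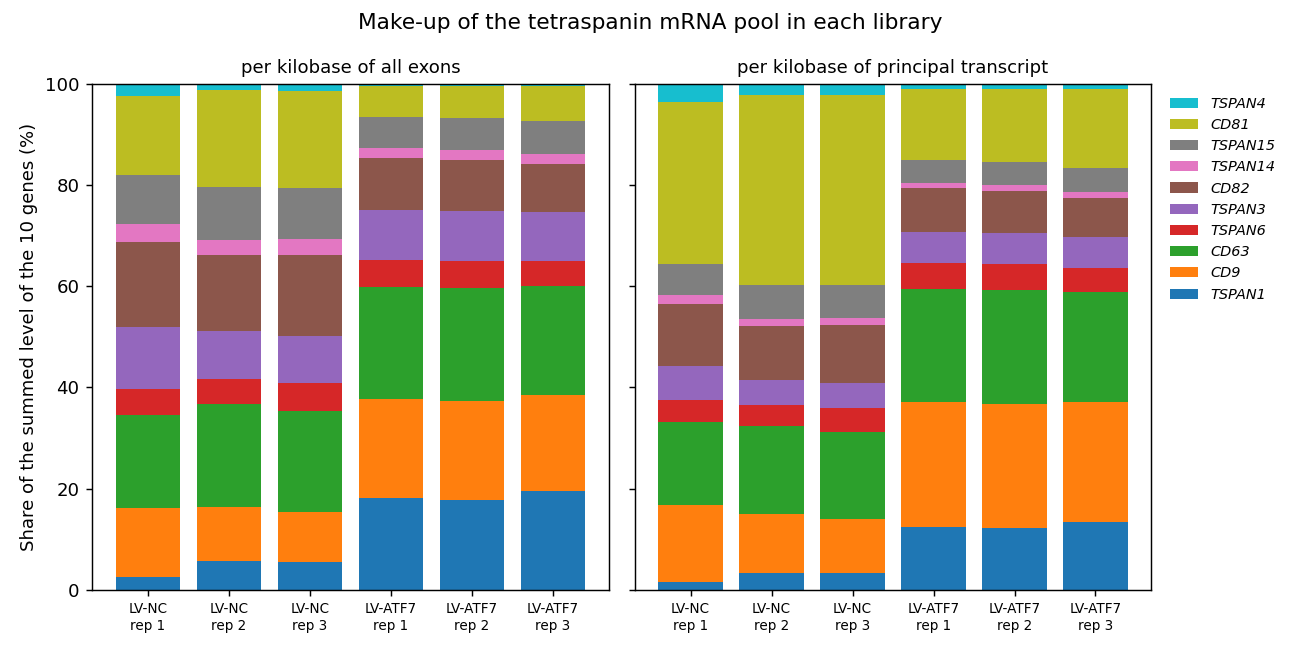
Share of each tetraspanin (y axis, percent) in the summed per-kilobase level of the 10 genes in each of 6 libraries, with all exon bases as length on the left and the principal transcript on the right. *CD81* narrows from LV-NC to LV-*ATF7* and *TSPAN1* and *CD9* widen in both panels.

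The genes whose profile over the 6 libraries lay closest to each exosome marker are given as a description. Distances are Euclidean, on log2 CPM centered on each gene's mean. Closest to *CD63* were *FKBP4* (0.0372), *TCFL5* (0.0405) and *UCK2* (0.0809), with log2 fold changes of 1.08, 1.07 and 1.10. Closest to *CD9* were *RPL27A* (0.0649), *IQSEC2* (0.0767) and *MR1* (0.0868). Closest to *CD81* were *TTC5* (0.0695), *RNASET2* (0.0710) and *DPM2* (0.0736), with log2 fold changes of -0.65, -0.59 and -0.56.

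The rest of the family also moved both ways. Of 23 other tetraspanins, 12 were in the table, and 8 of these passed (5 higher, 3 lower). This is 66.7%, beside the 67.6% of all genes, and the median log2 fold change of the 12 was 0.01. The largest fall was in *TSPAN13*, which had 167.3, 146.7 and 139.8 CPM in LV-NC and 40.19, 43.53 and 42.36 CPM in LV-*ATF7* (log2 fold change -1.85, adjusted p = 4.39e-06). *TSPAN5* fell from 36.18 ± 7.54 to 11.66 ± 1.26 CPM (SD, n = 3 each), a log2 difference of -1.63 with an adjusted p of 9.03e-05. *TSPAN12*, a coreceptor in Norrin signaling, fell from 18.6 ± 4.47 to 10.69 ± 1.71 CPM (log2 fold change -0.80, adjusted p = 0.00874). *CD151*, which binds laminin-receptor integrins in hemidesmosomes, rose from 83.19 ± 10.3 to 134.3 ± 6.26 CPM (SD, n = 3 each), a log2 difference of 0.69 with an adjusted p of 7.81e-04. *TSPAN2* (log2 fold change 1.46, adjusted p = 0.0065) and *CD37* (1.08, adjusted p = 0.0368) were near the limit of detection, at under 4 CPM in every library. *TSPAN2* passed in all of its 13 alternatives, but *CD37* did not pass with DESeq2 (adjusted p = 0.0816), with library size scaling (0.074) or without any of the libraries other than LV-NC replicate 1 (0.0626 to 0.136). The number that passed was 5 in each fit without one of the libraries other than LV-NC replicate 1, and 11 without LV-NC replicate 1. Over all genes it was 7290 to 7720 in the former fits and 10011 (80.1%) in the latter.

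**Figure D4:**
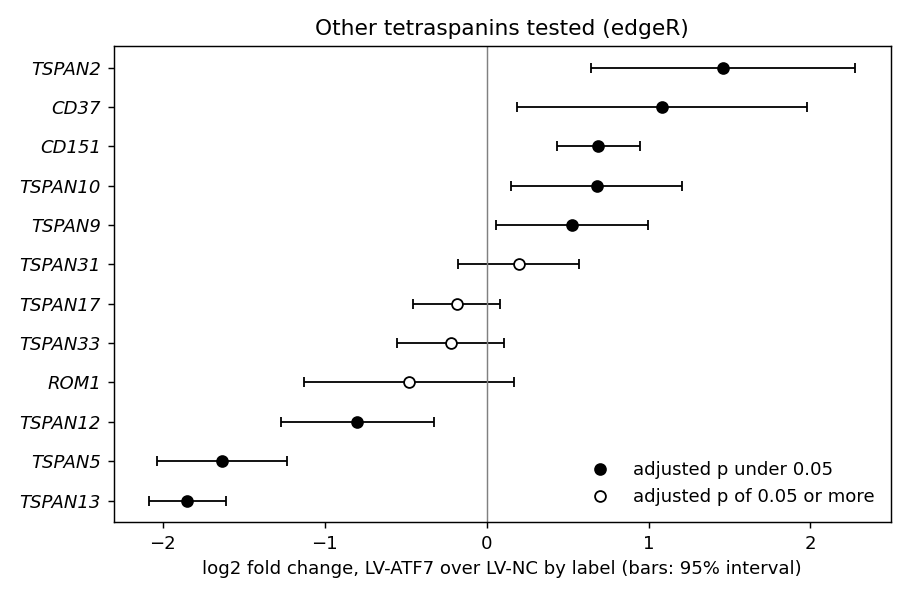
Fitted log2 fold change of the 12 other tetraspanins tested (x axis, LV-*ATF7* over LV-NC by label) with 95% intervals from edgeR, filled where the adjusted p was under 0.05. *TSPAN2* is highest at 1.46 and *TSPAN13* lowest at -1.85, and the intervals of *TSPAN31*, *TSPAN17*, *TSPAN33* and *ROM1* include 0.

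Within the TspanC8 group and ADAM10, 3 of 7 genes passed, *TSPAN10* and *ADAM10* higher and *TSPAN5* lower. This is 42.9%, below the 67.6% of all genes. *ADAM10* had 179.0, 226.2 and 231.0 CPM in LV-NC and 304.4, 282.3 and 243.9 CPM in LV-*ATF7* (log2 fold change 0.38, adjusted p = 0.0309), and it did not pass with library size scaling (adjusted p = 0.146), with the replicate number as a block (0.0531) or without LV-NC replicate 2 or 3 or LV-*ATF7* replicate 1 or 2 (0.0507 to 0.115). *TSPAN10* was at 1.26 to 2.54 CPM in all libraries (adjusted p = 0.0286), and its call was lost in 8 of 13 alternatives (adjusted p from 0.0666 to 0.108 in those). *TSPAN17* and *TSPAN33* had log2 fold changes of -0.19 (adjusted p = 0.19) and -0.22 (adjusted p = 0.199). Of the 7, 1 passed without LV-NC replicate 2 or 3 or LV-*ATF7* replicate 1 or 2, and 5 without LV-NC replicate 1. Over all genes, 7290 to 7720 passed in the former fits and 10011 (80.1%) in the latter.

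Among 19 membrane partners of tetraspanins, 9 were higher, 5 lower and 5 did not pass, with a median log2 fold change of 0.08. The 73.7% that passed is near the 67.6% of all genes. *CLDN1*, the tight junction protein that pairs with CD81, rose from 244.3 ± 61.7 to 2172 ± 70.3 CPM (SD, n = 3 each), a log2 difference of 3.15 with an adjusted p of 5.69e-06. *EGFR* rose by 2.35 (adjusted p = 1.73e-05) and the hemidesmosome integrin *ITGB4* by 1.95 (adjusted p = 7.82e-06) on the log2 scale. The direct partners of CD9 and CD81 differed from each other. *IGSF8* fell from 61.57 ± 3.27 to 32.44 ± 4.07 CPM (SD, n = 3 each), a log2 difference of -0.92 with an adjusted p of 2.12e-04, while *PTGFRN* had 147.7 ± 14.9 and 155.8 ± 4.41 CPM (log2 fold change 0.08, adjusted p = 0.508). The sign of the *PTGFRN* value was negative with library size scaling and without LV-NC replicate 2.

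Among residents of late endosomes and lysosomes, the compartment of CD63, more genes were lower than higher. Of 23 tested, 14 were lower, 4 higher and 5 did not pass, with a median log2 fold change of -0.49. In all 78.3% passed, beside 67.6% of all genes, of which 32.9% were lower and 34.7% higher. *LAMP1*, chosen as an example after its values were seen, fell from 553.9 ± 39.8 to 424.5 ± 22.9 CPM (SD, n = 3 each), a log2 difference of -0.38 with an adjusted p of 0.00885, whereas *CD63* rose. The proteases *CTSD* (log2 fold change 1.45, adjusted p = 1.06e-04) and *CTSB* (1.38, adjusted p = 3.46e-05) were higher, and *GLA* was lower (-1.39, adjusted p = 0.00871). For *GLA*, LV-NC had 44.28, 131.2 and 127.0 CPM and LV-*ATF7* 38.46, 38.59 and 38.05 CPM, so LV-NC replicate 1 was close to LV-*ATF7*.

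Of 19 genes for exosome formation and release, 11 were lower, 4 higher and 4 did not pass, with a median log2 fold change of -0.39. The share that passed was 78.9%, beside the same 67.6% of all genes (32.9% lower, 34.7% higher). *SMPD3*, a neutral sphingomyelinase, fell from 12.08 ± 6.10 to 0.488 ± 0.0737 CPM (SD, n = 3 each), a log2 difference of -4.62 with an adjusted p of 1.16e-04. Its LV-*ATF7* libraries were near the limit of detection, and LV-NC replicate 1 had 5.086 CPM against 14.84 and 16.32 CPM in the other LV-NC libraries. *FLOT2*, a lipid raft scaffold, rose from 100.3 ± 2.17 to 515.9 ± 30.9 CPM (SD, n = 3 each), a log2 difference of 2.36 with an adjusted p of 1.3e-06.

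Of 11 migrasome genes tested, *TSPAN4* among them, 7 were lower and 3 higher, with a median log2 fold change of -0.48. Thus 90.9% passed, where 67.6% of all genes did (32.9% lower, 34.7% higher). *NDST1* had a log2 fold change of 2.21 (adjusted p = 3.16e-06). *SGMS2* had a log2 fold change of -1.47 (adjusted p = 8.91e-05) and *ITGA5* one of -1.13 (adjusted p = 5.74e-05). The directions of all these changes follow the deposited labels, which *ATF7* goes against.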

How the data were processed

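Poly(A) mRNA libraries from HaCaT cells were sequenced on an Illumina NovaSeq instrument. The authors deposited raw counts per gene and FPKM values for 6 libraries. The genome build is GRCh38 per the submitters' processing notes, and the aligner, counter, annotation and strandedness are not given in the sources used here. The authors' deposited fold changes (a ratio and its log2), p-values and adjusted p-values were not used. The deposited FPKM served only to derive the gene length behind it, as an alternative length.

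Counts were TMM-scaled and tested with edgeR 4.0.16 (glmQLFit, glmQLFTest) in R 4.3.3, LV-*ATF7* against LV-NC, after filterByExpr, with Benjamini-Hochberg adjustment over 12462 genes and a threshold of 0.05. The standard error was the log2 fold change divided by the square root of F. Depth left counting error small for the members, whose counts ran from 225 to 6627 per library. On simulated data with 200 of 12447 genes changed, this fit called 125 of the 200 and missed the rest. Of its calls, 8.76% were false, which is above the threshold. A far larger part of the genes passed in the real data (67.6%), so these rates may not hold there. Coordinates and lengths are from GENCODE release 29, in which 12485 of 12499 identifiers were found.

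Named were the members, *ATF7*, the 3 largest rises and falls among other tetraspanins, up to 3 genes with the largest change in each related list, *ADAM10*, *IGSF8*, *PTGFRN* and *SDCBP*, and the nearest profiles. Genes outside this rule serve as markers or examples. The members and lists were chosen with earlier results of these data known. Alternatives were DESeq2 1.42.0, library size or RLE scaling, other filters, limma 3.58.1 voom with sample quality weights, a replicate block, each library left out, other gene lengths and a fold change of at least 1.5.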

Additional observations from a re-analysis of the deposited data

How the results depend on the processing

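No member changed direction in any of its 13 alternatives, and in 118 of 130 pairs of a member and an alternative it stayed on its side of the threshold. Leaving out each library in turn, 6 to 9 members passed (6 without LV-*ATF7* replicate 2, 9 without LV-NC replicate 1), beside 7290 and 10011 of all genes in the same fits. The log2 fold change of *CD82* was 0.05 with library size only, 0.19 with RLE factors, 0.19 with at least 10 counts in every library and 0.21 with the replicate block, none of which passed, and ran from 0.16 to 0.22 with one library left out. That of *TSPAN4* ran from -0.87 to -0.50 and that of *TSPAN14* from 0.13 to 0.27 with one library left out, and *TSPAN14* reached the threshold at 0.21 under sample quality weights (limma voom). The cause was not tested. *PTGFRN* was at -0.09 with library size only and -0.03 without LV-NC replicate 2.

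The replicate numbers were not taken as pairs, because the deviations of same-numbered libraries correlated at only 0.0583, -0.0209 and 0.0649. However, 4 of 6 libraries correlated best with their own number. With the replicate block, 7 members passed, and so did 8210 genes in all, 8068 of them among the 8429 of the fit without it. In the TspanC8 group and ADAM10, 1 gene passed with the block, 5 with sample quality weights and from 1 to 5 with one library left out. Among other tetraspanins it was 5 to 11 with one library left out. Over all genes, 8210 passed with the block, 10391 with sample quality weights and 7290 to 10011 with one library left out.

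The change in a member's share of the pool, in percentage points, moved with the gene length. With the length implied by the deposited FPKM, which for *CD63* and *TSPAN4* exceeds the whole gene, it was 3.57 for *CD63* and 3.63 for *CD9*. On that scale the change turned positive for *TSPAN3* (0.922) and *TSPAN6* (0.781). With principal transcripts, an alternative added after seeing the data, it was 5.28 for *CD63*, 11.8 for *CD9*, -21.0 for *CD81*, -3.22 for *CD82*, 10 for *TSPAN1*, 0.497 for *TSPAN3*, -1.69 for *TSPAN4*, 0.612 for *TSPAN6*, -0.419 for *TSPAN14* and -1.83 for *TSPAN15*. With one library left out it ran from -1.1 to 0.422 for *TSPAN3* (positive without LV-NC replicate 1) and from -0.18 to 0.114 for *TSPAN6*. All exon bases gave -0.562 and -0.0629 for these 2 genes.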
